A study of Mus musculus with 24 samples.

Results

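MicroRNA (miRNA) levels in the subcutaneous adipose tissue of mice, a white fat depot, were compared between week 3 and week 1 of control feeding. The comparison used 8 of the 24 libraries of the study, the 4 labelled control diet at week 3 and the 4 labelled control diet at week 1, chosen by their labels alone. The other 16 libraries came from control feeding at day 1 and from high-fat feeding at day 1, week 1 and week 3, again 4 per group. No library of the comparison came from a high-fat group, so it describes how the tissue differed between the times without a change of diet. All 8 libraries were made from 1 microgram of total RNA of the same tissue with the same kit. The labels give no strain, sex, age, genotype or batch and do not say that the libraries came from separate animals. The p-values for single miRNAs therefore rest on the spread between libraries of a group, estimated over all 24 libraries. That spread may be technical, and time on the diet and the age of the mice cannot be told apart.

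A miRNA is cut from a hairpin precursor, in most cases first by Drosha and then by DICER, and either side of the hairpin, the 5p or the 3p arm, can be loaded into an Argonaute protein. The loaded strand finds messenger RNAs mainly through its seed, bases 2 to 8 from the 5′ end, and represses them. Fat tissue is a mixture in which adipocytes lie among vessels, blood, stroma, leukocytes and, depending on the dissection, pieces of neighbouring skin, gland or muscle, and several miRNAs are known for 1 of these cell types. In such bulk tissue, fewer cells of a type and less RNA per cell cannot be told apart.

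The miRNAs with the smallest p-values are shown first, with the seed in capitals, since the values below turn on them. All sequences are from RefSeq on GRCm38.p6, the mouse assembly of the mm10 build that the submitters' processing notes name. The miR-144 and miR-451a hairpins lie in 1 intergenic cluster on the plus strand of chromosome 11, with miR-144-5p at 78073010 to 78073032, miR-144-3p at 78073047 to 78073066 and miR-451a at 78073186 to 78073207. This cluster is known as a product of maturing red blood cells, and miR-451a is known as a miRNA that Argonaute 2 cuts in place of DICER.
miR-144-5p: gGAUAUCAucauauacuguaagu
miR-144-3p: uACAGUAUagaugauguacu
miR-451a: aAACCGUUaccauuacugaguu
The lowest p-value among the miRNAs with lower estimates belonged to miR-101c, shown with its relatives because their sequences nearly coincide. The 19 bases of miR-101c are bases 2 to 20 of miR-101a-3p, and its longest run shared with miR-101b-3p is 14 bases. miR-101c lies at 3038680 to 3038698 on the minus strand of chromosome 9 (intergenic), miR-101a-3p at 101346957 to 101346977 on the minus strand of chromosome 4 (exon of E130102H24Rik) and miR-101b-3p at 29135338 to 29135356 on the plus strand of chromosome 19 (intron of Rcl1).
miR-101c: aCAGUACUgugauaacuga
miR-101a-3p: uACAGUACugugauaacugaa
miR-101b-3p: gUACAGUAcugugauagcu
The last group are the arms of the 2 miR-24 hairpins, of which the 5p arms share a seed and the 3p arm has the same sequence at both loci. The miR-24-1 arms lie on the plus strand of chromosome 13 (63301213 to 63301235 and 63301251 to 63301272, exon of 2010111I01Rik) and the miR-24-2 arms on the plus strand of chromosome 8 (84208839 to 84208860 and 84208875 to 84208896, intergenic).
miR-24-1-5p: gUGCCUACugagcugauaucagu
miR-24-2-5p: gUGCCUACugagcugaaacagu
miR-24-3p: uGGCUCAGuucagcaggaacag

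No miRNA passed the test between week 3 and week 1 of control feeding. Of the 558 miRNAs tested with edgeR's quasi-likelihood test, 0 (0%) had a Benjamini-Hochberg adjusted p under 0.05, and the lowest adjusted p was 0.993. DESeq2 and limma-voom also called 0. Here limma-voom was always run with quality weights, by which more variable libraries count less. At an unadjusted p under 0.05 there were 13 miRNAs (2.33% of those tested), 9 with a higher estimate at week 3 (1.61%) and 4 with a lower one (0.717%). DESeq2 gave 12 and limma-voom 15 at that level. By chance alone a share of about 0.05 would have such a p, a larger share than any of these. By level alone, 3 miRNAs had all 4 week 3 libraries above all 4 week 1 libraries (0.538%) and 2 had all of them below (0.358%). If labels were exchanged at random, 4 libraries against 4 would lie apart in either direction with a probability of 0.0286. That is a larger share than these 2 together. The 3 were miR-144-5p, miR-365-1-5p and miR-3097-3p, the last named only because the count was small, and the 2 were miR-101c and miR-29b-1-5p. Over all tested miRNAs 237 estimates were above 0 and 321 below, with a median log2 fold change (week 3 minus week 1) of −0.04 and a median absolute value of 0.18. The 13 miRNAs at an unadjusted p under 0.05 carried 12 different seeds, since only miR-24-1-5p and miR-24-2-5p shared one.

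**Figure D1:**
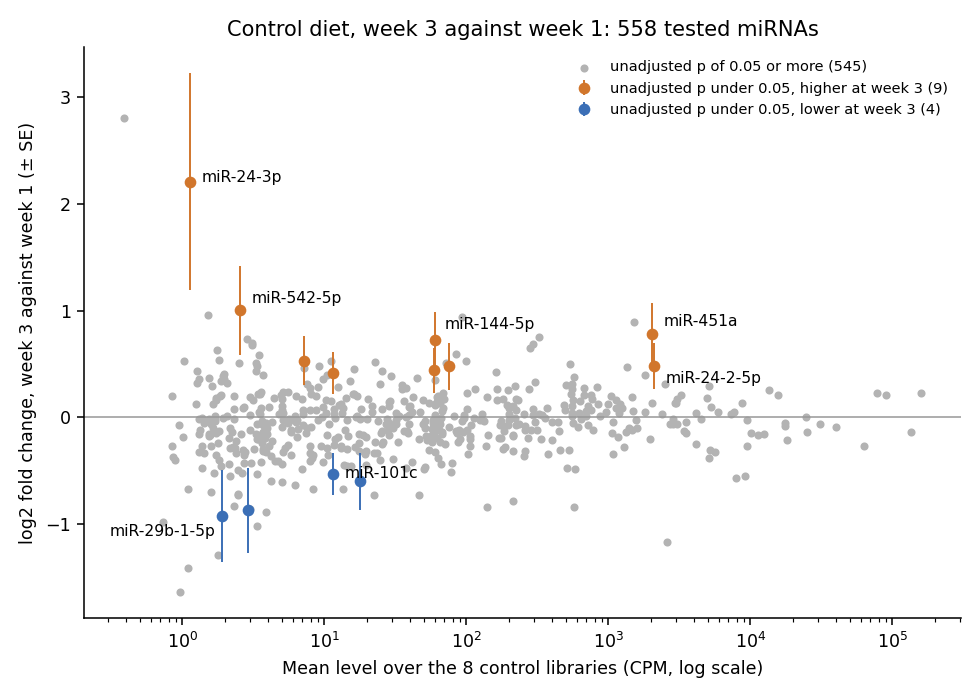
Each point is 1 of the 558 tested miRNAs, with its mean level over the 8 control libraries in CPM (counts per 1 M, or mega, counts of the library; log scale) on the horizontal axis and its log2 fold change, week 3 against week 1, on the vertical axis. Coloured points with SE bars are the 13 miRNAs at an unadjusted p under 0.05 (9 higher, 4 lower), none of which passed the adjusted threshold, and most grey points lie close to 0 at the higher levels.

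How small a change the comparison could show depended on the level of the miRNA, with the spread estimated over all 24 libraries. Levels are given as TMM-scaled CPM, counts per 1 M counts of the library after a scaling that makes most miRNAs comparable between libraries. The 95% interval of the fold change lay wholly within 2-fold in either direction for 355 of the 558 miRNAs (63.6%). Among miRNAs above 1000 CPM this held for 63 of 74 (85.1%), with a median SE of 0.20 on the log2 scale. Below 10 CPM it held for 70 of 201 (34.8%), with a median SE of 0.40. For 13 miRNAs the interval was wider than 4 log2 units, so that even large differences lay within the error. The estimate itself was under 1.5-fold for 516 miRNAs (92.5%).

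The libraries held 4.86 to 16.3 M counts (M, mega). The week 1 libraries averaged 9.24 M ± 4.92 and the week 3 libraries 6.26 M ± 1.03 (SD, n = 4 each), a difference of −0.133 in log10 total (exact two-sided permutation test, p = 0.286; the smallest p that 4 against 4 allows is 0.0286). Week 1 replicate 4 was the deepest library. Within groups the median SD of log2 CPM was 0.370 at week 1 and 0.387 at week 3. The first principal component held 46.1% of the variance and did not follow time. Week 1 replicate 4 (12.3) and week 3 replicate 1 (14.2) stood at one end and week 1 replicate 1 (−10.5) at the other. Among its leading miRNAs, miR-206-3p, miR-133b-3p and miR-1a-3p of skeletal muscle loaded with the first end (0.16, 0.15 and 0.15) and miR-142a-5p of leukocytes with the other (−0.14). The loading largest in size, that of miR-211-5p (−0.16), also lay with that other end. The second component held 22.1% and set week 3 replicate 4 apart (13.0, against 1.95 or less in every other library). Skeletal muscle miRNAs led this component too. miR-133a-5p, miR-133b-3p and miR-206-3p loaded with the end away from week 3 replicate 4 (−0.24, −0.19 and −0.17).

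The estimates with the lowest p-values on the higher side included those of the miR-144 and miR-451a cluster. miR-144-5p stood at 61.0, 33.6, 50.6 and 35.9 CPM in week 1 replicates 1 to 4 and at 62.6, 77.9, 67.4 and 90.5 CPM in week 3 replicates 1 to 4. The groups lay close but did not overlap, since week 1 replicate 1 lay just under week 3 replicate 1. The log2 fold change was 0.72 ± 0.27 (SE; 95% interval 0.17 to 1.27; edgeR adjusted p = 0.993). Intervals here and below are those of single miRNAs. They are not adjusted for the number of miRNAs tested or for naming those with the lowest p-values. It was 0.61 without week 3 replicate 4 and 0.89 without week 1 replicate 1.

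miR-451a stood at 1928, 1275, 1408 and 1404 CPM at week 1 and at 2128, 2342, 1705 and 4143 CPM at week 3. The highest value was week 3 replicate 4, and 1 week 3 library, replicate 3, lay below week 1 replicate 1. Its log2 fold change was 0.78 ± 0.30 (95% interval 0.16 to 1.39, adjusted p = 0.993), and 0.44 without week 3 replicate 4. Control tissue at day 1 held 2509 CPM ± 641 (SD, n = 4), against 1504 ± 290 at week 1 and 2580 ± 1075 at week 3, so the week 1 mean was the lowest of the 3 control times. miR-144-3p, which has the seed ACAGUAU, stood at 183, 133, 244 and 313 CPM at week 1 and at 284, 325, 221 and 540 CPM at week 3. These groups overlapped, with a log2 fold change of 0.65 ± 0.33 that became 0.33 without week 3 replicate 4.

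The other miRNA of the erythrocyte list, miR-486, is known from red cells and also from muscle, where it is encoded within Ank1. miR-486a-5p stood at 130, 143, 187 and 317 CPM at week 1 and at 338, 166, 163 and 165 CPM at week 3. Its high libraries were week 1 replicate 4 and week 3 replicate 1, the same 2 that were highest in muscle miRNAs, and not week 3 replicate 4, which was highest in miR-451a. The log2 fold change was 0.10 ± 0.43, with −0.24 once week 3 replicate 1 was left out. All 6 tested arms of the erythrocyte list had estimates above 0, with a median of 0.58 beside −0.04 over all tested miRNAs. The median was 0.25 without week 3 replicate 1 and 0.79 without week 3 replicate 3. Haemoglobin RNA was not measured in these libraries, and whether the amount of blood in the samples differed was not tested.

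**Figure D2:**
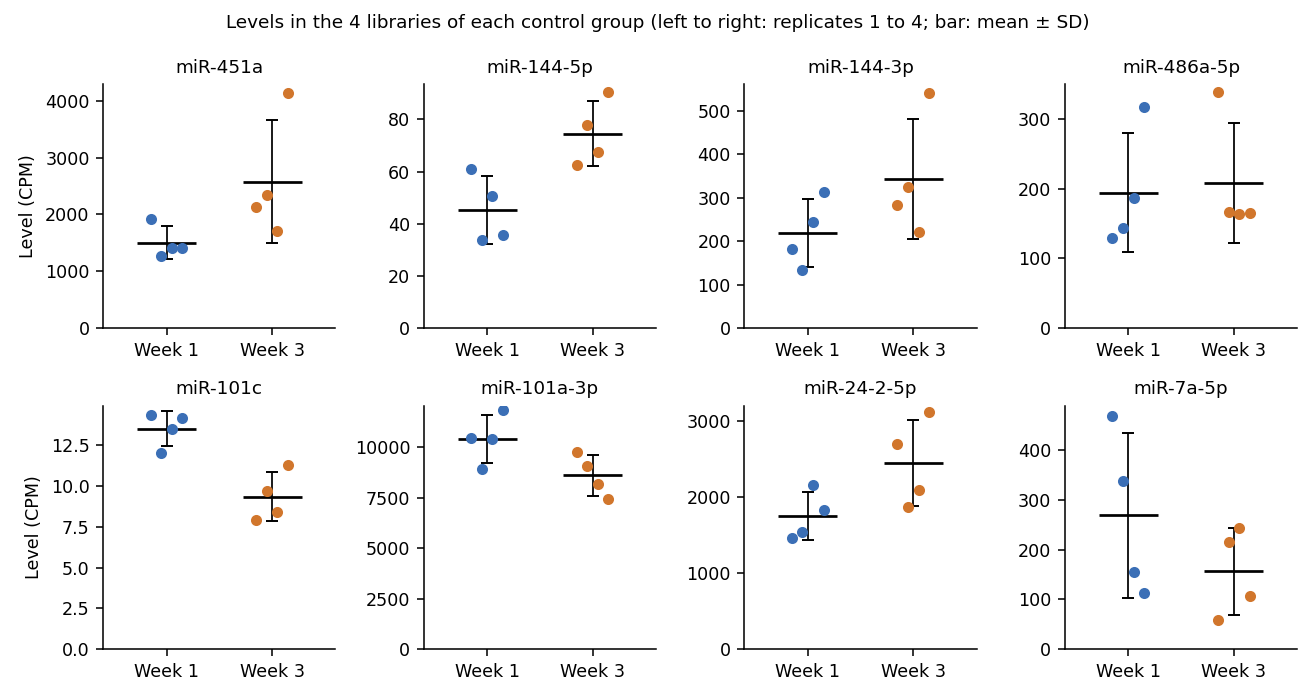
Levels in CPM of 8 miRNAs (vertical axes, each from 0) in the 4 week 1 and the 4 week 3 libraries of control feeding, with replicates 1 to 4 from left to right and bars for the mean ± SD. Groups did not overlap for miR-144-5p and miR-101c, while miR-451a and miR-144-3p were highest in week 3 replicate 4 and miR-486a-5p in week 3 replicate 1.

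Several other miRNAs with higher estimates were highest in week 3 replicate 4. miR-542-5p, from the X-linked cluster of miR-322 and miR-503, which is known to restrain the cell cycle, stood at 1.87, 1.24, 1.53 and 2.11 CPM at week 1 and at 1.54, 2.73, 3.26 and 6.18 CPM at week 3. The log2 fold change was 1.00 ± 0.42 and 0.58 without week 3 replicate 4. miR-503-3p of the same cluster stood at 47.8, 50.7, 44.6 and 57.4 CPM at week 1 and at 59.0, 64.4, 43.2 and 106 CPM at week 3. Its log2 fold change of 0.44 ± 0.21 became 0.14 without that library, so its estimate rested largely on 1 sample. Of the 11 tested arms of the cluster, 8 had estimates above 0 and 3 below, with a median of 0.11 (0.033 without week 1 replicate 1), and 2 of the 11 were among the 13 at an unadjusted p under 0.05.

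The 5p arms of both miR-24 hairpins gave the same estimate at levels that differed many-fold. miR-24-2-5p stood at 1465, 1542, 2159 and 1835 CPM at week 1 and at 2692, 1872, 2092 and 3116 CPM at week 3, with a log2 fold change of 0.48 ± 0.21. miR-24-1-5p stood at 54.3, 62.0, 67.8 and 68.9 CPM at week 1 and at 96.9, 61.3, 81.1 and 113 CPM at week 3, with 0.48 ± 0.22. In both, week 3 replicates 1 and 4 were the high libraries and the groups overlapped. The miR-24-3p arm, known as the main product of both hairpins, had 1, 4, 4 and 5 counts at week 1 and 2, 1, 5 and 35 counts at week 3. It lay near the floor of 3 counts (0.186 to 0.661 CPM across the libraries), so its fitted change rested on week 3 replicate 4 and no fold is given. The 3p sequence is the same at both loci, and how reads with 2 matching positions were counted is not given in the sources used here. Over the miR-23, miR-27 and miR-24 clusters 7 of 11 tested arms had estimates above 0, with a median of 0.13, and −0.058 without week 3 replicate 1.

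The other miRNAs named for higher estimates had low levels. miR-365-1-5p, from a hairpin family known for a role in brown fat formation, stood at 10.8, 5.66, 9.10 and 10.8 CPM at week 1 and at 15.2, 11.2, 11.02 and 15.3 CPM at week 3. The groups did not overlap, with a log2 fold change of 0.53 ± 0.26. The sequence of miR-6516-5p lies in exons of Snhg20 and Gm26083 on the same strand, so its reads and fragments of those RNAs cannot be told apart. This miRNA stood at 7.28, 5.53, 6.14 and 4.47 CPM at week 1 and at 9.91, 6.82, 8.39 and 8.54 CPM at week 3, with 0.53 ± 0.23. Only replicate 2 of week 3 fell within the week 1 range. let-7a-1-3p had a log2 fold change of 0.41 ± 0.20 from a mean of 9.78 CPM ± 1.00 to 13.1 CPM ± 2.34 (SD, n = 4 each). RefSeq gives let-7c-2-3p the same sequence, and that name had 68.3 CPM over the 8 libraries and a log2 fold change of 0.09 ± 0.20, so the reads of this sequence did not give 1 estimate. miR-3097-3p stood at 0.877 to 1.25 CPM at week 1 and at 1.32 to 2.73 CPM at week 3, with a log2 fold change of 0.96 ± 0.47.

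On the lower side the clearest separation was that of miR-101c. It stood at 14.4, 12.02, 13.5 and 14.1 CPM at week 1 and at 7.93, 9.69, 8.39 and 11.3 CPM at week 3, every week 3 library below every week 1 library. The log2 fold change was −0.53 ± 0.20 (95% interval −0.94 to −0.13; edgeR adjusted p = 0.993), and −0.64 to −0.43 when each library was left out in turn. The miR-101 family is known for repressing Ezh2, a histone methyltransferase. miR-101a-3p, which contains the whole of miR-101c and was chosen for that after values were seen, stood at 10448, 8954, 10430 and 11842 CPM at week 1 and at 9766, 9061, 8205 and 7449 CPM at week 3. These groups overlapped, with a log2 fold change of −0.27 ± 0.18 (95% interval −0.65 to 0.10), and −0.17 without week 1 replicate 4. miR-101b-3p, named on the same ground, gave −0.30 ± 0.18, from 5732 CPM ± 441 to 4648 ± 494 (SD, n = 4 each), and −0.20 without week 3 replicate 3. Because the letters of miR-101c lie within miR-101a-3p, their reads cannot be told apart except at the ends.

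The passenger arms miR-101b-5p and miR-29b-1-5p had few counts, 7 to 32 and 5 to 27 in the 8 libraries. miR-101b-5p stood at 6.45, 4.14, 2.74 and 1.99 CPM at week 1 and at 1.54, 2.59, 2.003 and 1.82 CPM at week 3, with a log2 fold change of −0.87 ± 0.40, and −0.53 without week 1 replicate 1. The groups overlapped. miR-29b-1-5p, from the family known for targeting collagens, stood at 2.91, 3.32, 2.19 and 1.68 CPM at week 1 and at 1.10, 1.5004, 1.25 and 1.27 CPM at week 3, with a log2 fold change of −0.93 ± 0.43. Every week 3 library lay below every week 1 library. Of the 7 tested arms of the miR-29 family 2 had estimates above 0 and 5 below, with a median of −0.23 (0.032 without week 1 replicate 2), and abundant miR-29a-3p gave −0.15 ± 0.19. miR-8114 stood at 25.4, 20.7, 14.7 and 25.2 CPM at week 1 and at 9.25, 15.96, 14.02 and 17.3 CPM at week 3, with −0.60 ± 0.27. Its sequence lies in an exon of Glul on the same strand (chromosome 1, 153899989 to 153900009), so its reads and fragments of Glul RNA cannot be told apart.

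Below these came miRNAs with unadjusted p-values above 0.05. miR-7a-5p, from a hairpin in an intron of Hnrnpk and another locus with the same mature sequence, stood at 468, 338, 155 and 113 CPM at week 1 and at 59.0, 215, 243 and 106 CPM at week 3. Its 8 values spanned a wide range within each group, and the log2 fold change of −0.78 ± 0.41 had a 95% interval of −1.64 to 0.08. It was −0.37 without week 1 replicate 1 and −1.05 without week 3 replicate 3. The low libraries were again week 1 replicate 4 and week 3 replicate 1, with week 3 replicate 4. miR-877-3p, cut from an intron of Abcf1 without Drosha, stood at 26.8, 16.9, 9.97 and 13.3 CPM at week 1 and at 9.25, 8.46, 10.4 and 13.6 CPM at week 3, with −0.67 ± 0.36, and −0.36 without week 1 replicate 1. miR-219c-3p (−0.72 ± 0.37), miR-1306-5p (−0.53 ± 0.29, within an exon of Dgcr8, a partner of Drosha), miR-700-5p (−0.41 ± 0.20) and miR-1249-3p (−0.40 ± 0.21) completed the 10 lowest p-values in that direction. Reads of miR-1306-5p and fragments of Dgcr8 RNA cannot be told apart either. Without 1 library, miR-1249-3p came to −0.24 (week 3 replicate 4 left out) and miR-700-5p to −0.27 (week 3 replicate 2 left out).

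The most abundant miRNAs had small estimates. The SEs of miR-148a-3p and miR-143-3p lay above the median of 0.20 for miRNAs over 1000 CPM. miR-148a-3p, enriched in adipocytes and known to promote their differentiation, was the most abundant miRNA, with 178373, 106889, 141990 and 162432 CPM at week 1 and 175215, 145708, 110614 and 257432 CPM at week 3. The log2 fold change was 0.22 ± 0.24 (95% interval −0.28 to 0.73), and −0.045 without week 3 replicate 4, its highest library. miR-143-3p, known from smooth muscle, gave −0.14 ± 0.23 (−0.61 to 0.34), from 141929 CPM ± 17234 to 129100 ± 23845 (SD, n = 4 each), but 0.038 without week 3 replicate 3. miR-126a-3p of endothelium, hosted by Egfl7, gave 0.21 ± 0.15 (−0.11 to 0.53), from 83849 CPM ± 6756 to 97056 ± 18259. It was 0.10 without week 3 replicate 1. miR-99a-5p gave 0.23 ± 0.20, but 0.0087 without week 3 replicate 4. miR-21a-5p, which is known to rise in activated fibroblasts and leukocytes, gave −0.27 ± 0.18, but −0.067 without week 1 replicate 1. let-7i-5p gave −0.09 ± 0.17. miR-378a-3p, from an intron of the metabolic regulator gene Ppargc1b, gave −0.21 ± 0.23 and miR-30a-5p, known to favour adipogenesis, −0.13 ± 0.16. Over the adipocyte list 13 of 24 tested arms had estimates above 0 and 11 below, with a median of 0.01 and 0 called. The mean log2 CPM of this list was 7.49 to 7.83 at week 1 and 7.57 to 8.04 at week 3, so the groups overlapped. Over all tested miRNAs it was 5.38 to 5.45 and 5.32 to 5.435.

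Skeletal muscle markers spread more widely among the libraries of each group than between the groups. The 8 tested skeletal muscle arms, known as myomiRs, had a mean log2 CPM of 4.22, 6.93, 7.03 and 8.28 in week 1 replicates 1 to 4 and of 8.20, 5.66, 6.40 and 4.50 in week 3 replicates 1 to 4. By this mean, muscle markers were present in every library. They were highest in week 1 replicate 4 and week 3 replicate 1, and lowest in week 1 replicate 1 and week 3 replicate 4. Single members could differ from the mean, since miR-1a-3p was lowest at week 3 in replicate 2. miR-1a-3p, the leading myomiR, stood at 316, 2325, 4067 and 5839 CPM at week 1 and at 7720, 706, 1619 and 1932 CPM at week 3, with a log2 fold change of −0.07 ± 1.58. miR-206-3p, restricted to skeletal muscle, ranged from 155 to 10835 CPM at week 1 and from 160 to 3427 CPM at week 3, with −1.17 ± 1.61. All 8 estimates were below 0, with a median of −0.24 and a median SE of 1.47. That median became 0.43 without week 1 replicate 4 and −1.53 without week 3 replicate 1, so the direction rested on single libraries.

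**Figure D3:**
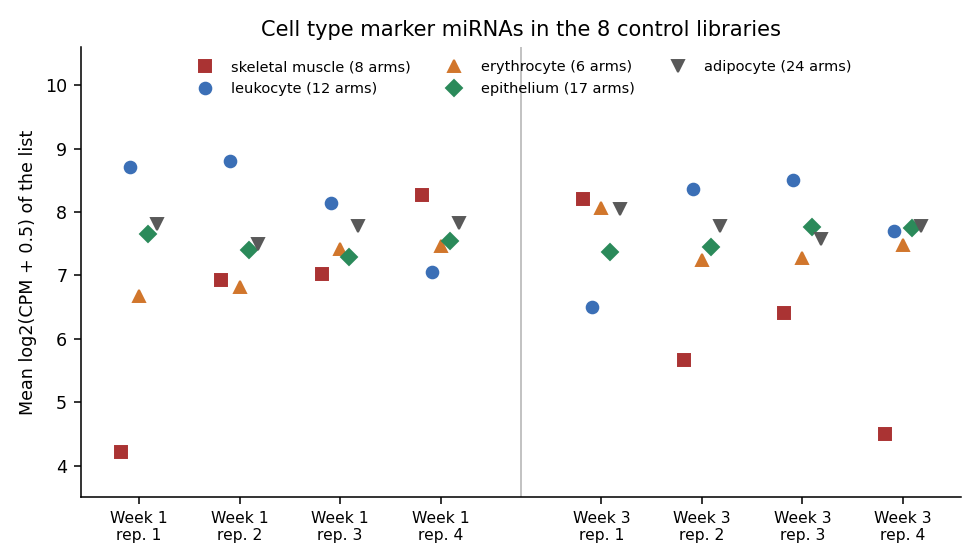
Mean log2(CPM + 0.5) of 5 lists of cell type marker miRNAs (vertical axis) in each of the 8 control libraries (horizontal axis), 1 symbol per list. Skeletal muscle markers ranged from 4.22 to 8.28 across the libraries, and the 2 libraries in which they were highest, week 1 replicate 4 and week 3 replicate 1, were those in which leukocyte markers were lowest (7.05 and 6.49).

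The leukocyte list had 12 tested arms, and all 12 had estimates below 0, with a median of −0.39 and 0 called. Its mean log2 CPM was 8.72, 8.81, 8.15 and 7.05 at week 1 and 6.49, 8.36, 8.50 and 7.71 at week 3, so the groups overlapped and the lowest libraries were week 3 replicate 1 and week 1 replicate 4. miR-142a-3p, found throughout the blood lineage, stood at 11428, 14888, 8692 and 2806 CPM at week 1 and at 1048, 8692, 8705 and 7057 CPM at week 3, with a log2 fold change of −0.57 ± 0.60 (95% interval −1.82 to 0.68). It was −0.21 without week 3 replicate 1, its lowest library, and −0.87 without week 1 replicate 4. miR-146a-5p, a brake on inflammatory signalling, gave −0.33 ± 0.41. miR-150-5p, the lymphocyte marker, named after its values were seen, gave −0.38 ± 0.57, from 5773 CPM ± 2729 to 4442 ± 3021 (SD, n = 4 each), but −0.049 without week 3 replicate 1 and −0.77 without week 3 replicate 3. miR-223-3p of neutrophils and macrophages, also named then, gave −0.01 ± 0.21. The list median ranged from −0.65 without week 1 replicate 4 to −0.10 without week 1 replicate 2, and was −0.39 without the 2 libraries highest in muscle miRNAs. The part of tissue make-up in these estimates was not tested.

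The remaining cell type lists also had no called member. The epithelium list, which marks skin or mammary gland within the pad, had 12 of 17 estimates above 0 and 5 below, with a median of 0.17, and 0.075 without week 3 replicate 4. Its leading member miR-200a-3p was even, at 4958 to 7075 CPM at week 1 and 5632 to 6301 CPM at week 3 (0.05 ± 0.27), whereas miR-203-3p of keratinocytes reached 6015 CPM in week 3 replicate 3 against 1203 to 3510 CPM in the other libraries (0.32 ± 0.66). The 3 endothelial arms had a median of 0.12, the 4 smooth muscle and pericyte arms 0.02, the 8 stromal arms 0.05 and the 7 neuronal arms 0.17 (−0.085 without week 1 replicate 4). Among the neuronal arms miR-9-5p had the highest estimate of all, but on 0, 1, 0 and 2 counts at week 1 and 0, 0, 1 and 15 counts at week 3. It was named after its values were seen, and no fold is given. The liver miRNA miR-122-5p, which also circulates in blood, stood at 279, 128, 365 and 186 CPM at week 1 and at 507, 297, 481 and 337 CPM at week 3, with 0.76 ± 0.50.

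Of the 16 families and genomic clusters, none had a called member. The Dlk1-Dio3 cluster, an imprinted array expressed from the maternal chromosome, had 73 tested arms of 112 listed in the table. Of these 24 had estimates above 0 and 49 below, with a median of −0.13. The median was 0.28 without week 1 replicate 4, in which the cluster's mean log2 CPM was highest (4.93 against 3.59 to 4.40 in the other 7). Its abundant members miR-379-5p (−0.10 ± 0.32), miR-381-3p (−0.18 ± 0.45) and miR-411-5p (0.01 ± 0.30) had estimates within 1 SE of 0. The Sfmbt2 intron cluster, a rodent array of repeated hairpins, had 1 estimate above 0 and 8 below, with a median of −0.27. That median turned to 0.049 without week 3 replicate 1 and was −0.60 without week 3 replicate 3. Its mean log2 CPM was 3.87, 4.33, 4.17 and 2.58 at week 1 and 2.06, 4.16, 4.25 and 2.76 at week 3, low in the libraries that were low in leukocyte markers. The sequences of this array are close to each other, so the split of its reads among names is uncertain.

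The growth-promoting miR-17-92 cluster with its paralogues had 5 estimates above 0 and 17 below, with a median of −0.18. The median was 0.0048 without week 3 replicate 1 and 0.0027 without week 1 replicate 2. Its abundant members miR-92a-3p (−0.01 ± 0.23) and miR-93-5p (0.04 ± 0.14) were near 0. The let-7 family, known for promoting differentiation, had 16 above and 6 below, with a median of 0.08, and let-7g-5p gave −0.06 ± 0.12. The miR-30 family had 1 above and 10 below, with a median of −0.12 and estimates from −0.27 to 0.08, and the median was −0.0034 without week 3 replicate 2. The miR-99/100 and miR-125 families had 9 above and 2 below, with a median of 0.10, and −0.040 without week 3 replicate 1. The families of miR-15, miR-181, miR-130 and miR-34 and the Hox, miR-221 and miR-132 clusters had medians between −0.09 and 0.20. Leaving out 1 library or another turned the sign of each of these medians except that of the miR-221 cluster. Members of a family share reads, precursors or seeds and are not replicates.

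**Figure D4:**
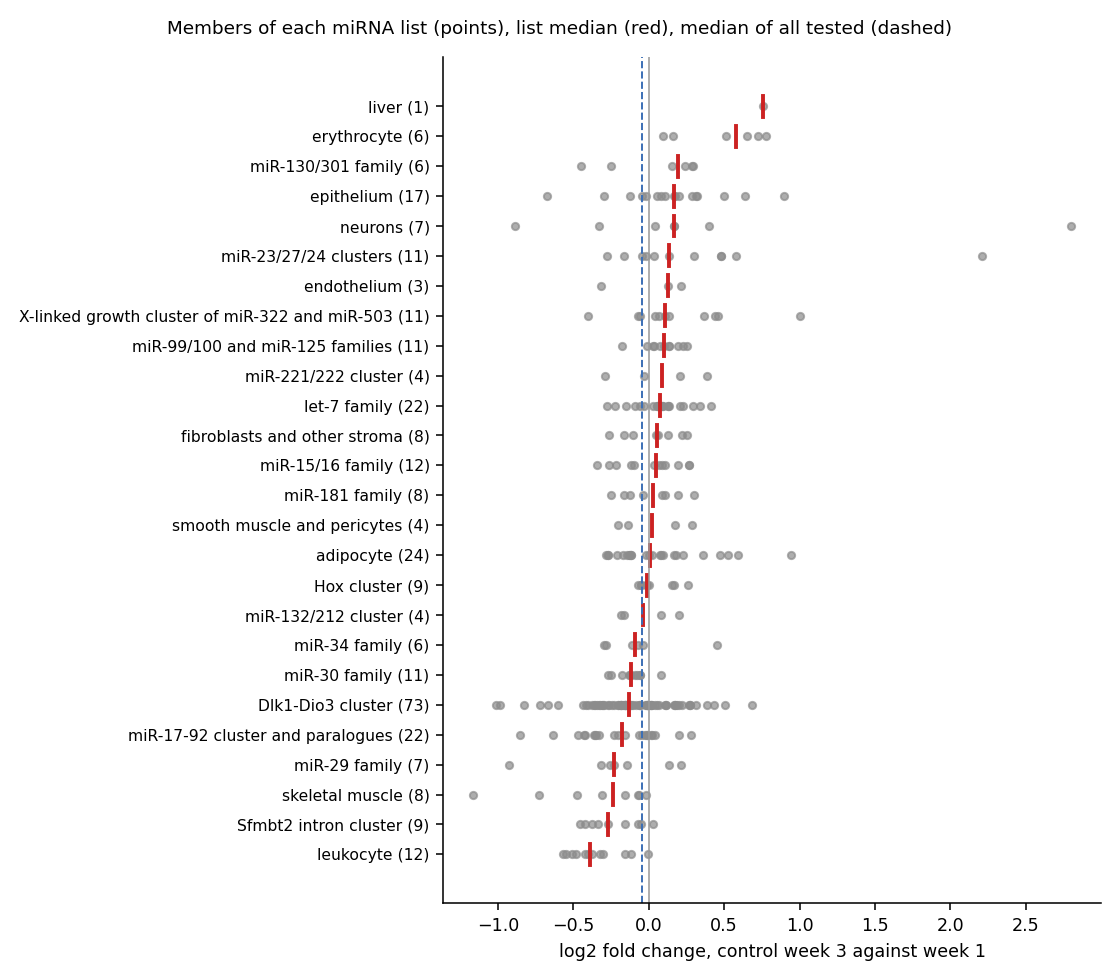
Log2 fold changes (week 3 against week 1, control diet) of the tested arms of the 26 lists, 1 grey point per arm, with the list median in red, the number of arms in brackets, and the median of all 558 tested miRNAs (−0.04) dashed. Leukocyte arms were all below 0 and erythrocyte arms all above 0, with medians of −0.39 and 0.58, and no point passed the adjusted threshold.

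The same interval on the high-fat diet, from week 1 to week 3 with 4 libraries at each time and none shared with the control groups, was set beside these values. The difference between the intervals was tested directly as an interaction term. It was called for 0 of 558 miRNAs (0%), with a lowest adjusted p of 0.546, and DESeq2 and limma-voom also called 0. At an unadjusted p under 0.05 there were 33 (5.91%), of which 17 were higher and 16 lower in the control interval. DESeq2 gave 41 and limma-voom, with its quality weights, 81. Without week 1 replicate 4 of the control diet the edgeR number was 93.

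From the 5 miRNAs with the smallest p-values for that difference in each direction, a selection is given first. The first in each direction, miR-3102-3p.2-3p (higher) and miR-18b-5p (lower), are not among those given. miR-205-5p, a marker of basal epithelium, stood at 1039, 900, 858 and 1411 CPM at control week 1 and at 1184, 1592, 3345 and 1711 CPM at control week 3. Its log2 fold change was 0.90 ± 0.56 under control feeding and −1.29 ± 0.57 under high-fat feeding, a difference of 2.19 ± 0.80 (adjusted p = 0.546 in edgeR) that was 1.59 to 2.73 when each of the 16 libraries was left out in turn. let-7c-1-3p gave 0.34 ± 0.28 and −0.73 ± 0.29 (difference 1.06 ± 0.40), and miR-369-3p of the Dlk1-Dio3 cluster gave −0.01 ± 0.28 and −1.07 ± 0.29 (difference 1.06 ± 0.40). In the other direction miR-222-5p gave −0.29 ± 0.26 and 0.71 ± 0.28 (difference −0.998 ± 0.38), and miR-877-3p −0.67 ± 0.36 and 0.67 ± 0.37 (difference −1.34 ± 0.52). For miR-144-5p the high-fat value was −0.11 ± 0.27 and the difference 0.83 ± 0.38, for miR-451a 0.22 ± 0.30 and 0.56 ± 0.42, and for miR-101c −0.27 ± 0.21 and −0.26 ± 0.29.

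Set side by side, several list medians had opposite signs in the 2 diets, without any member past the threshold for the difference. The 12 leukocyte arms had a median of −0.39 on the control diet (0 above 0) and 0.89 on the high-fat diet (9 above 0). With 1 control library left out, their control median ranged from −0.65 to −0.10. The 9 arms of the Sfmbt2 array had −0.27 (1 above; 0.049 without week 3 replicate 1) and 0.71 (9 above), and the 17 epithelial arms 0.17 (12 above) and −0.50 (0 above). The erythrocyte arms had 0.58 and −0.27. The 73 arms of the Dlk1-Dio3 cluster had medians of the same sign, −0.13 (24 above) and −0.76 (1 above). The control median of that cluster was 0.28 without control week 1 replicate 4. For that cluster the difference estimate was above 0 in 69 of 73 arms, with a median of 0.69 beside 0.02 over all tested miRNAs. An unadjusted p under 0.05 for the difference was met by 9 of these 73 arms (beside 33, or 5.91%, of all 558). It was also met by 3 of the 17 epithelial, 2 of the 12 leukocyte, 2 of the 9 Sfmbt2 and 1 of the 6 erythrocyte arms, and by 0 of the adipocyte list. The adipocyte list had 0.01 and −0.03. The high-fat medians were not recomputed with a library left out. The arms of a list vary together between libraries, so these counts do not add up as independent values.

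**Figure D5:**
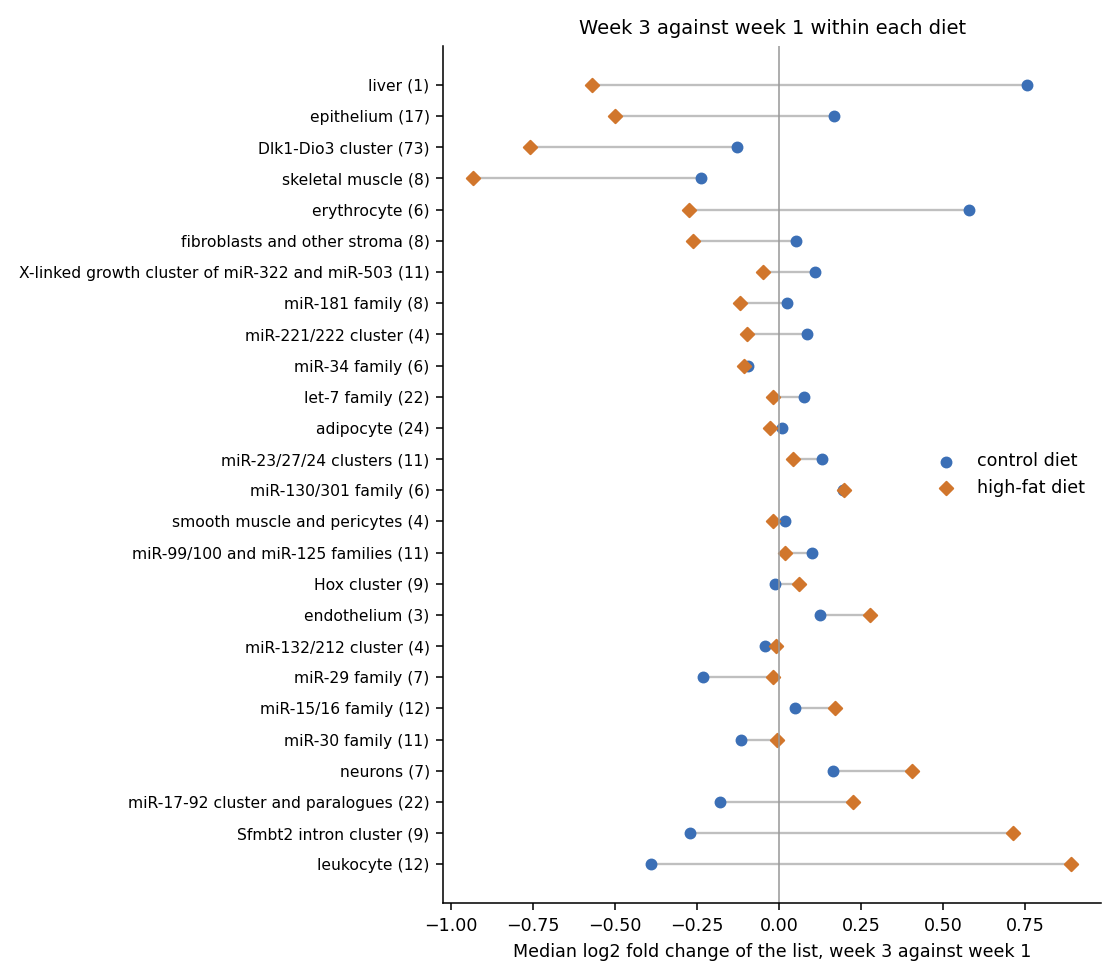
Median log2 fold change, week 3 against week 1, of each of the 26 lists under control feeding (blue circles) and high-fat feeding (orange diamonds), joined by a line, with the number of tested arms in brackets. The leukocyte list lies at −0.39 and 0.89 and the Dlk1-Dio3 cluster at −0.13 and −0.76, while the adipocyte list lies near 0 in both diets.

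The arms of 1 hairpin offer a further reading of the same precursor. Both arms were tested for 167 hairpin names, and in 99 of these the estimates had the same sign, with a Pearson correlation of 0.389 across hairpins (a description, since hairpins share libraries and are not independent). miR-144 had both arms above 0 (0.72 and 0.65). Both arms were below 0 for miR-142a (−0.55 and −0.57) and miR-223 (−0.12 and −0.01), but each of these estimates below 0 lay within 1 SE of 0. Other hairpins named above had arms of opposite sign (5p, then 3p). Among these were miR-542 (1.00 and −0.06), miR-6516 (0.53 and −0.29) and miR-1306 (−0.53 and 0.22). miR-700 (−0.41 and 0.20) and miR-148a (−0.27 and 0.22) also had arms of opposite sign. For miR-101b the arms gave −0.87 (5p) and −0.30 (3p), and the 5p arm was the rarer, at 1.54 to 6.45 CPM against 4193 to 6306 CPM.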

How the data were processed

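Small RNA was sequenced from fat under the skin of mice, after TRIzol extraction, per the labels' protocols. The authors deposited raw counts for 1907 mature miRNA names, 1 column per library. FastQC, Trim Galore, Bowtie2, featureCounts and the mm10 build are named per the submitters' processing notes. Versions, settings and the handling of reads with several matches are not given there. Of the 1907 names 440 had 0 counts in all 24 libraries. A filter (edgeR's filterByExpr over the 6 groups, minimum count 10, minimum total 15) kept 558, and the other 1349 held 0.0179% of counts. Replicates of the compared groups differed by at least 265 chi-square units per degree of freedom, so none were merged. Counting floors cover counting error only.

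All 24 libraries were fitted in 1 cell-means model of the 6 groups by edgeR 4.0.16 under R 4.3.3 (quasi-likelihood F test, TMM, robust dispersion, Benjamini-Hochberg adjusted p under 0.05), and week 3 against week 1 and its difference between diets were taken as contrasts. Intervals use the test's t quantile. The biological coefficient of variation was 0.359. Library totals were compared by an exact permutation test. Alternatives were RLE size factors, library totals alone, TMM without the 5 most abundant miRNAs, 2 other filters, DESeq2 1.42.0, limma-voom with quality weights (limma 3.58.1), fewer libraries and a replicate block.

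The miRNAs named are, for either direction, the 10 lowest p-values, the 10 most abundant, up to 3 abundant arms of each of 26 lists and 5 per direction for the difference between diets, of which the text gives a selection. Others are marked as chosen after values were seen. Members and lists were chosen with earlier results of these data known. RefSeq sequences matched 489 of the 558 tested names. Gene annotation is GENCODE on GRCm38. Sequences of some named miRNAs are not reported here.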

Additional observations from a re-analysis of the deposited data

Results flagged for a closer look

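A library lay far from the other 3 of its group in 2 of the 68 groups of 4 values examined. These groups covered 34 of the named miRNAs, and others, such as miR-9-5p and miR-205-5p, were not examined. In both groups marked, the library was control week 3 replicate 1. miR-486a-5p was high there, at 338 CPM against 163 to 166 CPM in the other 3 libraries, and miR-142a-3p was low, at 1048 CPM against 7057 to 8705 CPM. Each was marked because the gap to its nearest neighbour took up, on the log2 CPM scale, more of the group's range than Dixon's 95% critical value allows. At this limit about 1 group in 20 would be marked by chance, a larger share than the 2 of 68 marked here. The same library had a mean log2 CPM of skeletal muscle markers of 8.20, against 4.50 to 6.40 in the other week 3 libraries. The part of that in the 2 values was not tested.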

How the results depend on the processing

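Under the 10 alternative settings that kept or changed the processing and the 8 that left out 1 library, edgeR, DESeq2 and limma-voom called 0 miRNAs for week 3 against week 1, and the difference between diets also had 0 calls throughout, including its 16 settings without 1 library. The number at an unadjusted p under 0.05 (13) was 39 without a filter, 8 at a mean CPM of at least 10, 8 with only the 8 libraries compared, 21 without the 2 libraries highest in muscle miRNAs, and 6 (without week 3 replicate 4) to 30 (without week 1 replicate 4) with 1 library left out. For the difference between diets (33) it was 79 without a filter, 81 in limma-voom, 73 without those 2 libraries, and 20 (without high-fat week 3 replicate 4) to 93 (without control week 1 replicate 4) with 1 left out. Of 605 recomputed values of 34 named miRNAs, 591 kept their direction. let-7i-5p turned to 0.061 in limma-voom and to 0.075 without the 2 muscle-high libraries. With 1 library left out, let-7i-5p ranged from −0.18 to 0.032, miR-486a-5p from −0.24 to 0.49, miR-148a-3p from −0.045 to 0.45, miR-143-3p from −0.24 to 0.038, miR-1a-3p from −1.14 to 0.50 and miR-206-3p from −1.86 to 0.47. The list medians of endothelium (−0.14 in limma-voom), stroma (0.33) and Hox (−0.23, both without the 2 muscle-high libraries) also moved. The log10 total differed by −0.199 to −0.0367 without 1 library.

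Replicate numbers gave no clear sign of pairing. Deviations of same-numbered libraries correlated by −0.55 to 0.23, over 0.1 in 2 of 4 numbers, and 0 of 4 week 3 libraries correlated best with its own number. With 4 numbers and a wide spread within groups, a weaker pairing would not be seen this way. With the replicate block, 0 miRNAs were called in either comparison, and 12 and 31 had an unadjusted p under 0.05.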

Other observations

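Names with the same mature sequence received very unequal counts. RefSeq gives miR-199a-3p and miR-199b-3p 1 sequence, found at 3 positions, yet miR-199a-3p stood at 13634 CPM and miR-199b-3p at 1.24 CPM over the 8 libraries. let-7a-1-3p and let-7c-2-3p, also of 1 sequence, stood at 11.4 and 68.3 CPM. Of the tested names 29 had a sequence at more than 1 RefSeq position. Some were abundant, such as miR-103-3p at 5252 CPM and miR-125b-5p at 2850 CPM, while others were low, such as miR-26a-5p at 17.7 CPM, below its passenger arm miR-26a-2-3p, at 20.7 to 33.3 CPM, and miR-24-3p, with 57 counts in the 8 libraries together. These names were chosen after their values were seen. How the counting assigned such reads was not tested, and changes of these names over time are uncertain for the same reason.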
